A study of Danio rerio with 697 samples.

Results

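Insulin-high cells are wells of sorted larval zebrafish beta cells with more than 1000 counts on *ins*, the main insulin gene, and they were compared between larvae given csn for 48 h and control larvae. A well was chosen if it also had at least 200 detected genes, at least 50000 counts on genes and at most 40% of them on the 13 mitochondrially encoded protein genes. Cells were thus selected on their *ins* level, depth and mitochondrial share. In all, 403 of the 539 wells of both groups were chosen, out of 697 wells in the series. The control plate gave 95.38% of its wells, 48-h set 1 gave 48.25% (69 cells), set 2 gave 75.78% and the 48-h pool 65.03%, and the plot of *ins* against gene counts prints the number chosen in each group.

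The control larvae were *Tg(ins:Kaede)*, in which the insulin promoter drives a green fluorescent protein, and these larvae received csn as well. The 48-h larvae carried *Tg(ins:TRPV)* beside *Tg(ins:Kaede)*, and so also had the rat TRPV channel under the insulin promoter. Both groups were kept in csn (capsaicin) for 48 h, starting at 3 and ending at 5 dpf (days after fertilization), and 20 larvae per group are stated. The pancreatic region was dissected by hand and dissociated with enzymes. Cells were stained with calcein as a sign of viability and sorted, 1 cell per well, for Smart-seq2. The control plate was number 1 and the 48-h plate number 3, and presence of the channel and plate therefore cannot be told apart. The labels divide the 48-h wells into sets 1 and 2 and give no meaning for this division. Cells are not assigned to larvae, so each treatment counts as 1 sample and no difference below has a replicate check.

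Beta cells release insulin when glucose metabolism closes potassium channels and lets calcium enter. The same calcium signal, if it persists, burdens the endoplasmic reticulum (ER), where proinsulin folds, and the mitochondria that supply ATP. TRPV is a cation channel that csn opens, and the zebrafish channel does not respond to csn, so that only cells with the transgene should take up calcium through it. Heat shock proteins are chaperones that refold damaged proteins in the cytosol, and their genes respond quickly to heat, dissociation and other stress.

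The rule used *ins*, depth and the mitochondrial share, which are therefore described only. The chosen cells held between 171420 and 1060580 gene counts in the control group and between 76639 and 1084020 in the 48-h group, with medians of 659446 and 447548. Among wells that passed the other limits, the lowest *ins* count inside the limit was 1341 in control, 1958 in set 1 and 1998 in set 2, and the highest outside it was 780, 714 and 610, so few wells lay near it. The limits were applied in turn, the mitochondrial limit before that on *ins* and depth last. The limit on *ins* left out 6 control wells, 56 wells of set 1 and 34 wells of set 2, and the mitochondrial limit 2, 17 and 20. The limit on depth then left out 1 well of set 1. Shallow wells at 48 h were thus mostly counted under *ins*. Some of them were not poor in *ins* by share, such as wells with 550 of 5495 counts (set 1) and 487 of 4922 (set 2) on *ins*. Over all wells with enough genes, whatever their *ins* count, the highest mitochondrial share inside the limit was 39.6% in control and 38.5% at 48 h, and the lowest outside it 43.2% and 40.73%, so some wells lay close to this limit. The number of genes per cell, with each cell thinned to 50000 counts, had a median of 375 in control, 498 in set 1 and 421 in set 2 (unthinned 1232, 1416 and 1204). Spike-in RNA gave 524 gene counts per spike-in count in control, 254.3 in set 1 and 359.3 in set 2. Spike-in counts were uneven between cells, with lower quartiles of 18, 44 and 30 and medians of 684, 1312 and 615. These ratios therefore do not measure RNA per cell. No pair of wells held identical counts.

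**Figure D1:**
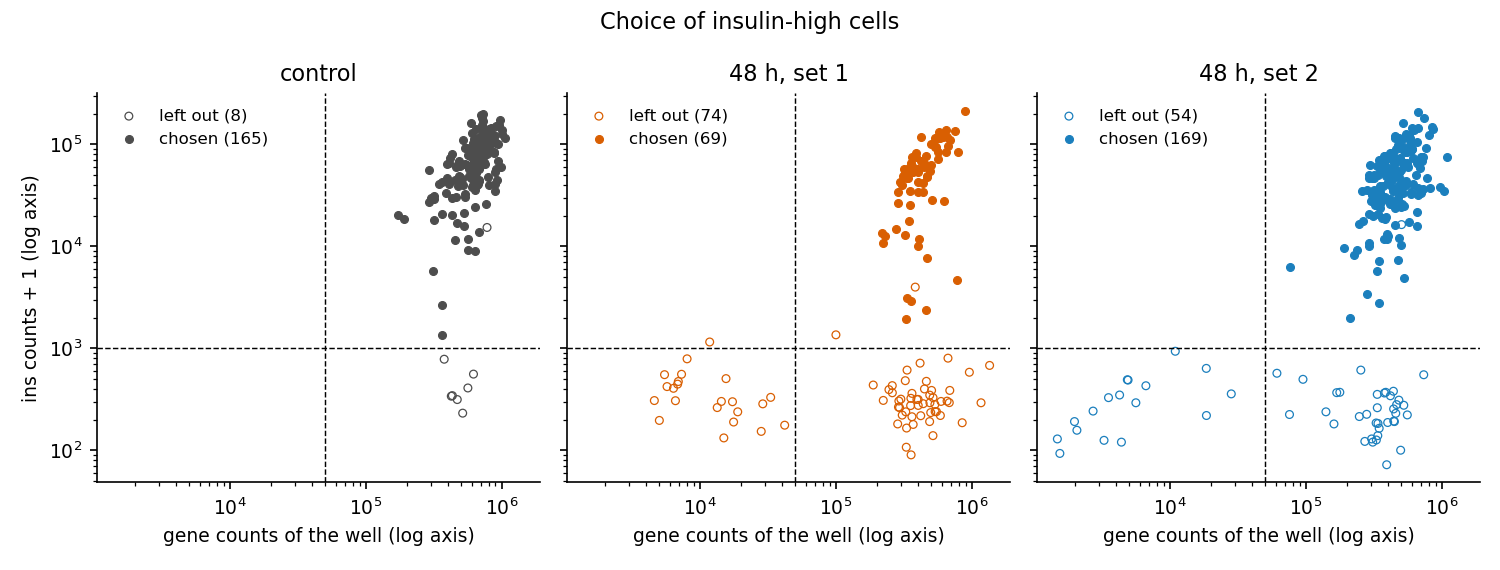
Counts on genes (x axis, log) and *ins* counts + 1 (y axis, log) of each well, in panels for control, 48-h set 1 and 48-h set 2, with dashed lines at 50000 gene counts and 1000 *ins* counts. Filled points are the chosen wells, with their number in each panel, and open points above both lines failed the mitochondrial limit.

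Levels below are CPM, the counts of a gene per 1000000 gene counts, summed over the cells of a group, and ratios are log2((CPM at 48 h + 1)/(CPM in control + 1)). A gene was tested if at least 25% of the cells of either group had a count, which held for 1242 genes. It is called higher or lower here if it was at least 2-fold apart from control in the pool and, in the same direction, in each set. By this rule 10.1% of the tested genes were higher and 11.4% lower, which is the background for every list below. Set 1 alone was 2-fold apart from control in 44.9% of genes and set 2 alone in 34.2%. The sets, which shared treatment and plate, were 2-fold apart from each other in 446 genes (35.9%), against 404 (32.5%) between the pool and control. By this share the pool lay no further from control than the sets from each other. The 2 shares rest on unlike numbers of cells, with set 1 the smallest group (69 cells), so they are not matched in counting error. Of the tested genes, 28.34% lay above control in one set and below it in the other. The median ratio over all tested genes was 0.10 in the pool, 0.16 in set 1 and 0.04 in set 2.

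**Figure D2:**
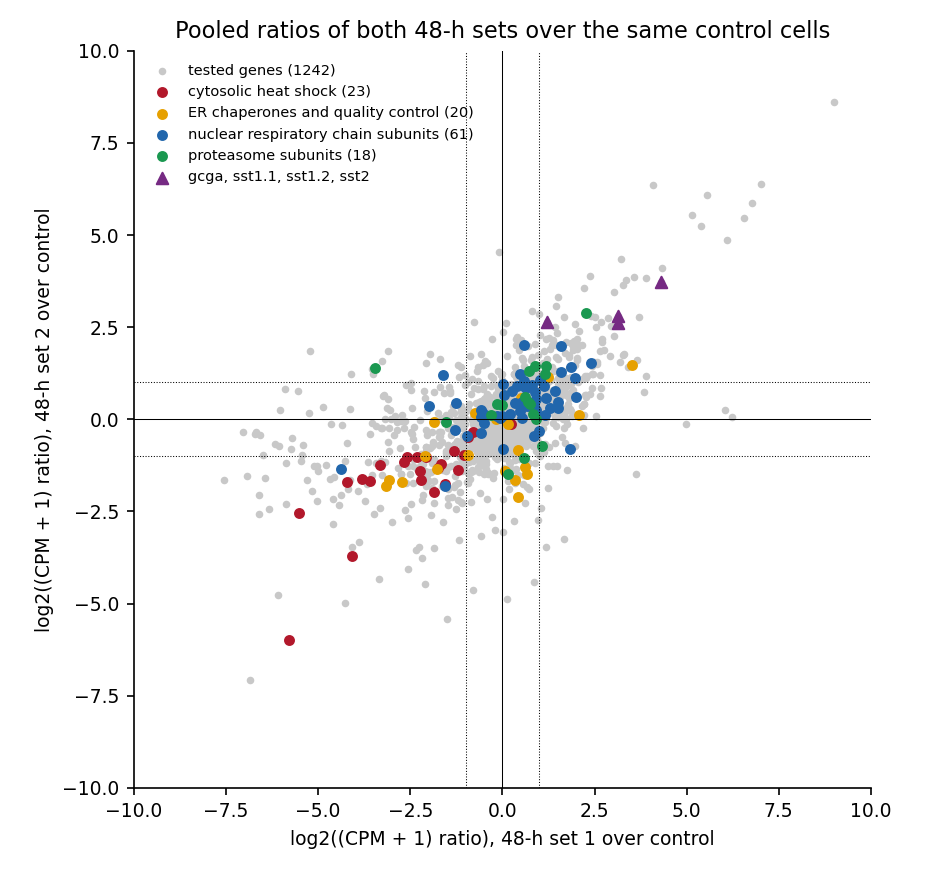
Log2 ratio over control of each of the 1242 tested genes in 48-h set 1 (x axis) and set 2 (y axis), with dotted lines at 2-fold; both axes share the same control cells, which alone draws points toward the diagonal. Heat shock genes (red) lie at the lower left, and the glucagon and somatostatin genes (purple triangles) at the upper right.

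Many of the genes plotted by cell had a lower cloud of cells near 10 CPM and an upper cloud above 100 CPM. A cell with at least 100 CPM of a gene is counted below as holding it. Of the genes called higher, 62 had over 20% of their 48-h counts in a single cell, and of those called lower, 87 had over 20% of their control counts in a single cell. The 12 genes furthest above and the 12 furthest below control named here come from the other 63 and 54 genes. Pooled counts carry exact Poisson intervals and shares of cells Clopper-Pearson intervals, both at 95%, and these cover counting error only.

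*ins* (chromosome 5, 37854685 to 37857696, GRCz11) stood at 115646 CPM in control, 131968 in set 1 and 115812 in set 2, and the values of single cells overlapped widely (medians 111434 in control and 111276 at 48 h). Of the other beta-cell markers, the transcription factors lay within 2-fold of control in the pool. *pdx1*, the transcription factor that maintains beta-cell identity, had 4700 CPM in control, 6002 in set 1 and 5329 in set 2, a ratio of 0.23. Cells with at least 100 CPM of *pdx1* made up 67.9% of control cells (interval 60.2 to 74.9) and 73.1% of 48-h cells (67.0 to 78.6). *neurod1* had a ratio of 0.34 and *mnx1*, a factor of beta-cell development, one of 0.19. Cells were chosen for high *ins*, so these levels hold for the chosen cells only. With no limit on *ins* the ratio of *mnx1* was -0.05. Those of *pdx1* and *neurod1* stayed above 0 under all alternatives tried (lowest 0.01 and 0.04). *insb*, the other insulin gene, had a count of 0 in every group, and *slc30a8*, the zinc transporter of insulin granules, stayed below 1 CPM. *pcsk1*, a protease that cleaves prohormones, had 36.6 CPM in control, 0.128 in set 1 and 1.26 in set 2, but 79.3% of its control counts lay in a single cell.

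Among the tested islet transcription factors, *nkx6-2* was higher, with 18.1 CPM in control, 176.2 in set 1 and 389 in set 2, a ratio of 4.12. It was held by 5 control cells (3.03%) and 24 cells at 48 h (10.08%), 1 of which carried 39.3% of the 48-h counts. *pax6* had a ratio of 0.89 and was not called. Of 11 tested genes of hormone granules and hormone processing, 0 were called in either direction, and their median ratio was -0.09 against 0.10 over all genes. Among them *chga*, a chromogranin of secretory granules, had a ratio of 0.59, and *pam*, which amidates peptide hormones, one of -0.65.

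Among the lists with more than 1 tested gene, cytosolic heat shock genes had the median furthest from control. Despite its name, the list also holds the mitochondrial chaperonin genes *hspd1* and *hspe1*. All 23 tested members lay below control in the pool, 18 were called lower (78.3%, background 11.4%) and 0 higher, and the median ratio was -1.44 (set 1 at -2.21, set 2 at -1.31). The list took 12.7% of all gene counts in control cells, 4.01% in set 1 and 5.47% in set 2. In single cells the summed level ran from 18472 to 269108 CPM in control, with a median of 128570. It ran from 600 to 142994 CPM in set 1 (median 31487) and from 7393 to 141500 CPM in set 2 (median 56984). Of the cells at 48 h, 94.12% lay below the lower quartile of the control cells, 34 cells below the lowest control cell and 0 above the upper quartile.

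Among called genes with no cell above 20% of the counts, the one furthest below control was an *hspa8* copy (ENSDARG00000037403, chromosome 15, 19661498 to 19677511). It had 2220 CPM in control (interval 2211 to 2229), 39.3 in set 1 and 34.1 in set 2, a pooled ratio of -5.93. At least 100 CPM were present in 50 control cells (30.30%), 2 cells of set 1 (2.90%) and 6 cells of set 2 (3.55%). After thinning, 47.9% of control cells and 16.39% of 48-h cells had a count (unthinned 92.1% and 50.4%). *hspa8* belongs to the heat shock protein 70 family of protein-folding ATPases, whose copies are alike in sequence. Reads may be split between them, so the value of a single copy is uncertain. The other *hspa8* copy (ENSDARG00000068992) had a ratio of -0.98 and was not called.

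Co-chaperones lay on the same side. *fkbp4*, a partner of heat shock protein 90, had 677 CPM in control, 39.01 in set 1 and 51.05 in set 2 (ratio -3.80), and was held by 21.8% of control cells and 5.46% of 48-h cells. *hsph1*, which recharges heat shock protein 70, had 766, 121.8 and 138.5 CPM (ratio -2.51). *dnaja*, a J-domain protein that hands clients to heat shock protein 70, had 7059 CPM in control, 385 in set 1 and 1887 in set 2 (ratio -2.26). It was held by 81.21% of control cells, 18.84% of set 1 (13 cells) and 48.52% of set 2 (82 cells). *ptges3l* had 7704, 509 and 1981 CPM (ratio -2.29). The mitochondrial chaperonin *hspd1* had a ratio of -2.94, with 25.7% of its control counts in a single cell, and the small heat shock gene *hspb1* one of -2.07.

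The heat shock members with the most counts in control, picked after their values were seen, had smaller ratios. *hsp70l* had 33958 CPM in control, 14722 in set 1 and 12983 in set 2 (ratio -1.33). *hsp90aa1.2* had 29701, 5992 and 14615 CPM (ratio -1.28), and *hsp70.1* had 24101, 7190 and 9695 CPM (ratio -1.42). The 5 members not called lower were *hsp70.3* (ratio -0.99), *hspa8* ENSDARG00000068992, *hsp90ab1* (-0.59), *hspe1* (-0.47) and *tcp1* (-0.02). Without the cells that hold another hormone, 16 of 23 members were lower and the median ratio was -1.55. Insulin-high cells of the 24-h group, which carried the channel, received csn for 24 h and lay on plate 2, gave the list 5.76% of their counts. The 24-h value is set against the same control cells, and 21 of the 23 members lay below control there too. Control thus differed in this list from the groups on both other plates, but treatment was confounded with plate.

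**Figure D3:**
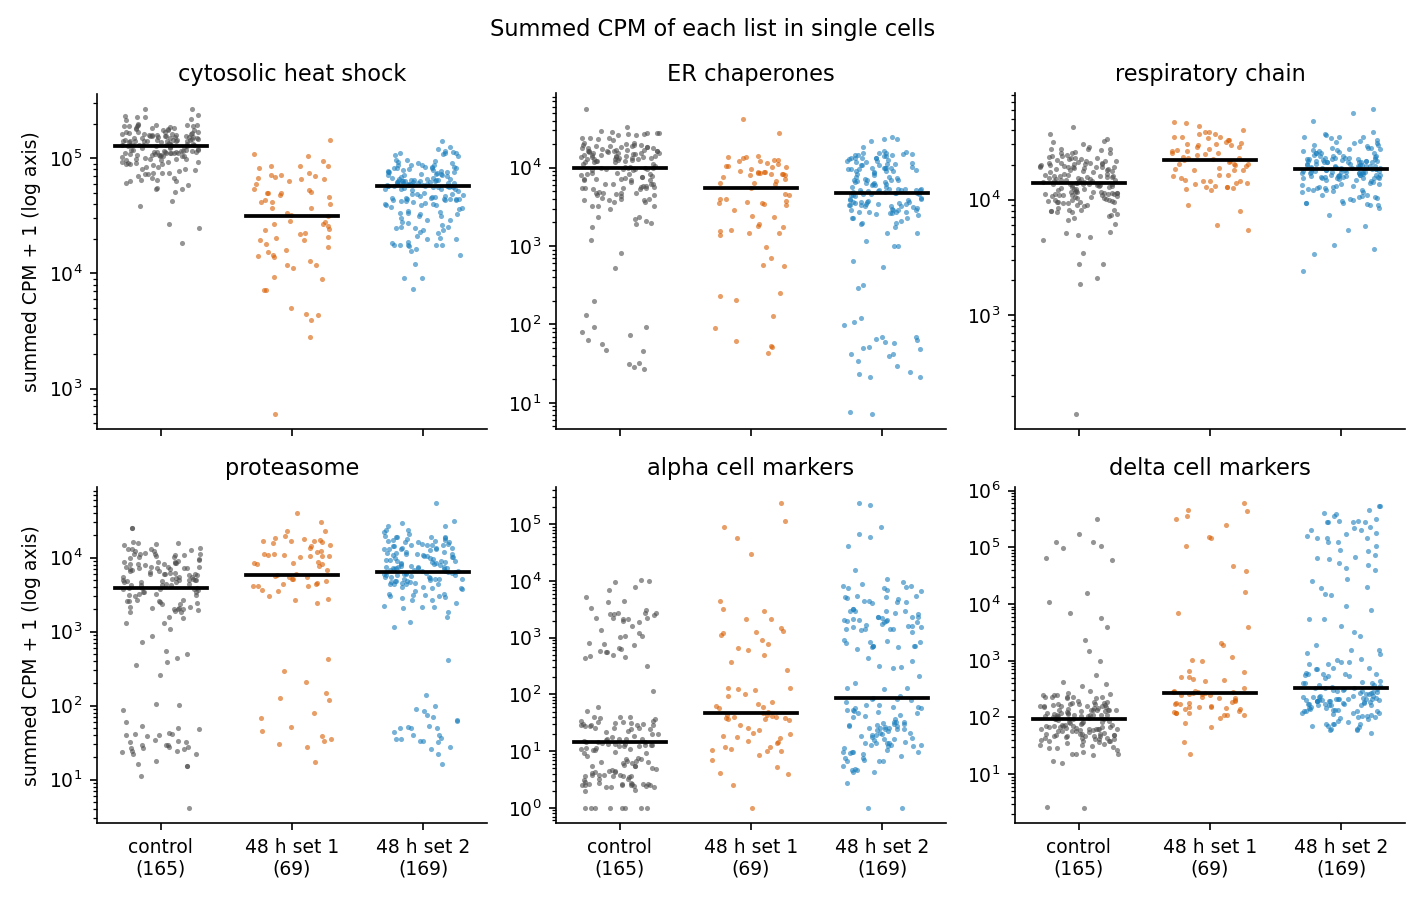
Summed CPM + 1 (y axis, log) of 6 gene lists in each insulin-high cell, for control, 48-h set 1 and 48-h set 2 (number of cells in brackets), with a black line at the median. Heat shock medians are 128570, 31487 and 56984 CPM, and the upper clouds of the delta cell markers hold more cells at 48 h.

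Chaperones of the ER were called in both directions. Of 20 tested members, 5 were lower (25.0%, background 11.4%) and 2 were higher (10.0%, background 10.1%). The median ratio was -0.50 (0.10 for set 1, -0.99 for set 2), so the medians of the sets differed in direction. In set 1 9 of the 20 members lay below control, and in set 2 14 did. The summed level was below control in both sets, at 11199 CPM in control, 6612 in set 1 and 6188 in set 2. In set 1 49.3% of cells and in set 2 48.5% lay below the lower quartile of the control cells. *hspa5*, the main ER chaperone (BiP), had 4505 CPM in control, 508 in set 1 and 1276 in set 2 (ratio -2.08). It was held by 70.303% of control cells (interval 62.7 to 77.2), 30.4% of set 1 (19.9 to 42.7) and 47.3% of set 2 (39.6 to 55.1). This single gene made up most of the fall in the summed level in both sets. Its J-domain partner *dnajb11* and the disulfide isomerase *pdia4* each had a ratio of -1.91. *fkbp2*, a prolyl isomerase of the ER, was higher, with 39.3 CPM in control, 464 in set 1 and 110.7 in set 2 (ratio 2.38).

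Of 6 tested regulators of the unfolded protein response, 1 was higher (16.7%, background 10.1%) and 0 lower. *eif2s1*, the initiation factor subunit whose phosphorylation slows translation, had a ratio of 1.42, but a single cell held 89.6% of its control counts. The stress-induced factors *atf4a* and *atf4b* had ratios of -1.09 and -0.60 and were not called. Of 17 tested genes of the translocon and of vesicle transport, 2 were higher (11.8%, background 10.1%) and 0 lower, with a median of 0.61. *copz1*, a subunit of the coat of Golgi vesicles, had 110 CPM in control, 595 in set 1 and 302.6 in set 2 (ratio 1.79). *srp54*, which guides new secretory proteins to the ER, had a ratio of 1.60.

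**Figure D4:**
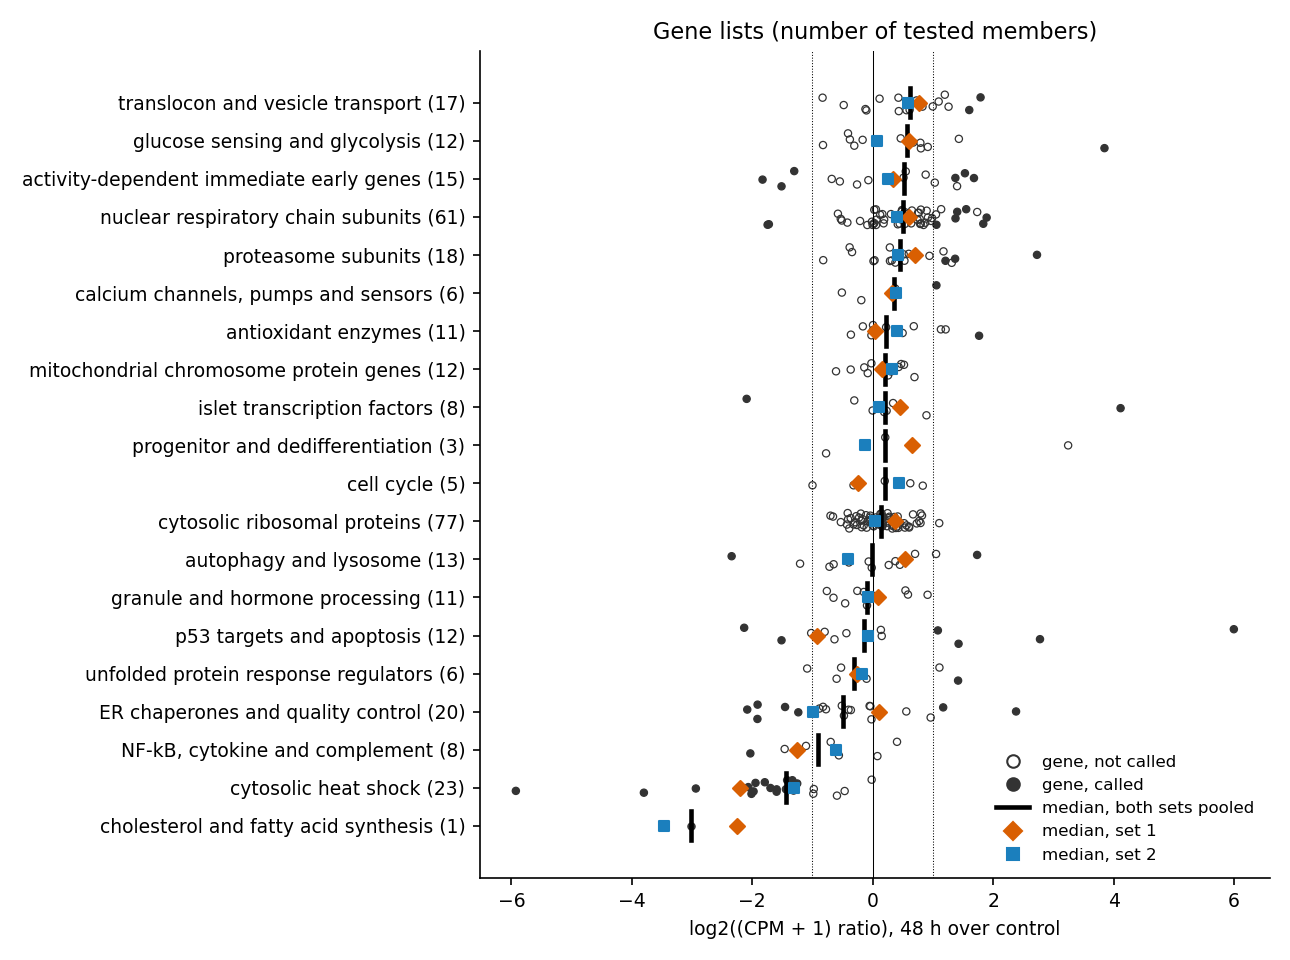
Log2 ratio of 48 h over control (x axis) of each tested member of the 20 gene lists (y axis, number tested in brackets), with filled circles for called genes. Black bars are pooled medians, orange diamonds and blue squares those of sets 1 and 2, and dotted lines mark 2-fold. The heat shock median of -1.44 lies outside 2-fold, as does the list with 1 tested member.

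Genes for ATP production were called higher about as often as all genes. Of 61 tested nuclear subunits of the respiratory chain and ATP synthase, 6 were higher (9.84%, background 10.1%) and 2 lower (3.28%, background 11.4%). Their median ratio was 0.50, beside 0.10 over all tested genes, and 51 of the 61 had a ratio above 0, compared with 53.78% of all tested genes. *ndufa6*, a complex I subunit, had 140.6 CPM in control, 750 in set 1 and 410 in set 2 (ratio 1.84), and *ndufb3* a ratio of 1.89. *uqcrc1*, a core subunit of complex III, was lower, with 246.1, 10.8 and 96.5 CPM (ratio -1.75). The 12 tested protein genes of the mitochondrial chromosome had ratios between -0.61 and 0.69 and 0 were called, but the mitochondrial share was part of the rule. Of 77 tested cytosolic ribosomal protein genes 0 were called, and the median was 0.14. For both of these lists the background was 10.1% higher and 11.4% lower.

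Of 12 tested genes of glucose sensing and glycolysis, 1 was higher (8.33%, background 10.1%) and 0 lower. In the pool 7 members lay above control and 5 below it, with a median ratio of 0.57. The summed level was 10286.5 CPM in control, 10311 in set 1 and 8312 in set 2. The medians of single cells were 9539, 6847 and 7170 CPM. In set 1 40.58% of cells and in set 2 39.65% lay below the lower quartile of the control cells. Above the upper quartile lay 21.74% and 15.98%. The ratio of *gpi*, a gene of glycolysis, ran from -2.22 to -0.61 over the alternatives tried. *pgam1a*, the phosphoglycerate mutase of glycolysis, had 25.4 CPM in control, 391 in set 1 and 374 in set 2 (ratio 3.85), and was held by 3 control cells (1.82%) and 28 cells at 48 h (11.76%). *abcc8*, the sulfonylurea receptor of the potassium channel that couples glucose to calcium entry, had a ratio of 1.43 and fell short of 2-fold in set 1 (0.52). Of 6 tested calcium genes, 1 was higher (16.7%, background 10.1%) and 0 lower. *calm1a*, which encodes the calcium sensor calmodulin, had 218.9 CPM in control, 472 in set 1 and 451 in set 2 (ratio 1.06). Another calmodulin gene, *calm3b*, had a ratio of -0.51. Calmodulin genes are alike in sequence, so reads may be split between them.

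Proteasome subunits were higher in 3 of 18 tested members (16.7%, background 10.1%) and lower in 0, with a median of 0.45. *psmd10*, which helps to assemble the proteasome cap, had 258.6 CPM in control, 1249 in set 1 and 1900 in set 2 (ratio 2.73). It was held by 7.27% of control cells (interval 3.81 to 12.4), 20.29% of set 1 (11.6 to 31.7) and 32.5% of set 2 (25.5 to 40.2). *psma3*, a core subunit, had 583, 1302 and 1365 CPM (ratio 1.21). Of 13 tested autophagy and lysosome genes, 1 was higher and 1 lower (7.69% each, background 10.1% and 11.4%). *map1lc3a*, which coats autophagosomes, had a ratio of 1.73, and *atp6v0d1*, a subunit of the proton pump of lysosomes, one of -2.34.

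Immediate early genes, which neurons and beta cells induce within minutes of calcium entry, were called in both directions. Of 15 tested, 3 were higher and 3 lower (20.0% each, background 10.1% and 11.4%). The median ratio was 0.51 (0.33 for set 1, 0.25 for set 2), beside 0.10 over all tested genes. Their summed level was below control in both sets, at 13385 CPM in control, 7625 in set 1 and 10400 in set 2. The list shares *mcl1a* with the apoptosis list, and this gene counts in both. The fall of *mcl1a*, with levels given below, was larger than that of the sum in both sets, so the sum without it did not fall. *ier2a* had 231.9 CPM in control, 510 in set 1 and 837 in set 2 (ratio 1.68), and was held by 8 control cells (4.85%) and 43 cells at 48 h (18.07%). *sik1*, a kinase induced by cyclic AMP, had a ratio of 1.53. *crema*, a repressor of cyclic AMP targets, was lower (ratio -1.83). Of 11 tested antioxidant genes, 1 was higher (9.09%, background 10.1%) and 0 lower. The higher gene was *sod1*, the cytosolic superoxide dismutase (ratio 1.77).

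Of 12 tested genes of apoptosis and p53 targets, 4 were higher (33.3%, background 10.1%) and 2 lower (16.7%, background 11.4%). The median ratio was -0.15 (-0.92 for set 1, -0.08 for set 2), and in the pool 6 members lay above control and 6 below it. The summed level was 11452 CPM in control, 4600 in set 1 and 7351 in set 2, a fall that was mostly that of *mcl1a*. *pmaip1*, which encodes the BH3-only death protein Noxa, had 0.944 CPM in control, 31.9 in set 1 and 158.4 in set 2 (ratio 6.00). At least 100 CPM were present in 0 control cells (exact upper limit 2.21%) and in 10 cells at 48 h (4.202%), 1 of which carried 25.5% of the 48-h counts. *mcl1a*, an anti-apoptotic relative of Bcl-2, had 7239 CPM in control, 1357 in set 1 and 2986 in set 2 (ratio -1.51), and was held by 74.5% of control cells and 44.96% of 48-h cells. *bnip3l*, a receptor for the removal of mitochondria, had a ratio of -2.13. Of 8 tested genes of NF-kB, cytokine and complement signalling, 0 were higher and 2 lower (25.0%, background 11.4%). *irf7*, an interferon regulatory factor, had 193.2 CPM in control, 68.9 in set 1 and 37.9 in set 2 (ratio -2.03). The complement gene *c3b.1* had 12.4, 5.07 and 4.39 CPM. Its call rests on these low levels, and its ratio ran from -2.04 to -0.59 over the alternatives tried.

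Lists tied to loss of identity or growth held few tested genes. Of 3 tested progenitor and dedifferentiation genes and 5 cell cycle genes, 0 were called. *cd9b* had a pooled ratio of 3.25, but 92.96% of its 48-h counts lay in a single cell and set 2 was at -0.13. Of the genes of cholesterol and fatty acid synthesis, 1 was tested, *elovl1a* (ratio -3.02), with 59.8% of its control counts in a single cell.

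Hormones of other islet cells were among the genes furthest above control. *sst2*, a somatostatin gene (chromosome 2, 5726353 to 5728843), had 909 CPM in control (interval 903 to 915), 18049 in set 1 and 11973 in set 2, a ratio of 3.91. Its lowest, median and highest cell were at 0, 39.95 and 111122 CPM in control and at 0, 121.6 and 549251 CPM at 48 h, so both the background and the high cells lay higher. *sst1.1*, another somatostatin gene, had 4230, 9880 and 26525 CPM (ratio 2.37), and *sst1.2* had 643, 5620 and 3960 CPM (ratio 2.78). *gcga*, a glucagon gene of alpha cells, had 620, 5435 and 4372 CPM (ratio 2.91). The other glucagon gene, *gcgb*, picked after its values were seen, had the highest ratio of all tested genes (8.72), with 2.28 CPM in control, 1692 in set 1 and 1269 in set 2, and over 1000 counts in 0 control cells and 11 cells at 48 h. A single cell held 26.003% of its 48-h counts. *pyya*, which encodes peptide YY, had 1702, 620 and 3124 CPM, and the sets lay on opposite sides of control.

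Over 1000 counts on another hormone gene (glucagon, somatostatin, *pyya* or *ghrl*, the ghrelin gene) were present in 63 control cells (38.2%, interval 30.7 to 46.1), 25 cells of set 1 (36.2%, 24.99 to 48.7) and, in set 2, 65.7% (57.999 to 72.8), so that set 1 lay near control and set 2 above it. For glucagon or somatostatin alone the cells numbered 32 in control, 19 in set 1 and 80 in set 2, or 19.4%, 27.5% and 47.3%. The summed level of the 4 delta cell markers was 5800 CPM in control and 40022 CPM at 48 h, and that of the alpha cell markers 625 and 6056 CPM. No doublet caller was run, and wells with more than 1 cell were not looked for. Without the cells that hold another hormone, 10.42% of the genes then tested were higher and 13.48% lower, while the share apart by at least 2-fold between the sets went from 35.91% to 50.39%. Of the genes named by rule, 64 then had a ratio that moved by at least the standard deviation between the sets, and 53 moved by less. *cd28*, called lower, was counted apart as the 1 called gene that changed sign. Uncalled genes changed sign too, among them *mnx1* (0.19 to -0.32), *kdelr2a* (1.26 to -0.46) and *nkx2-2* (0.87 to -2.99). Leaving out set 2 moved 71 of the named genes by at least that standard deviation and 47 by less, whereas leaving out set 1 moved only 1 that far. Set 2 held most of the 48-h cells, so the pooled ratios lay nearer to it. This contrast thus largely follows from the sizes of the sets and tells nothing about single genes.

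**Figure D5:**
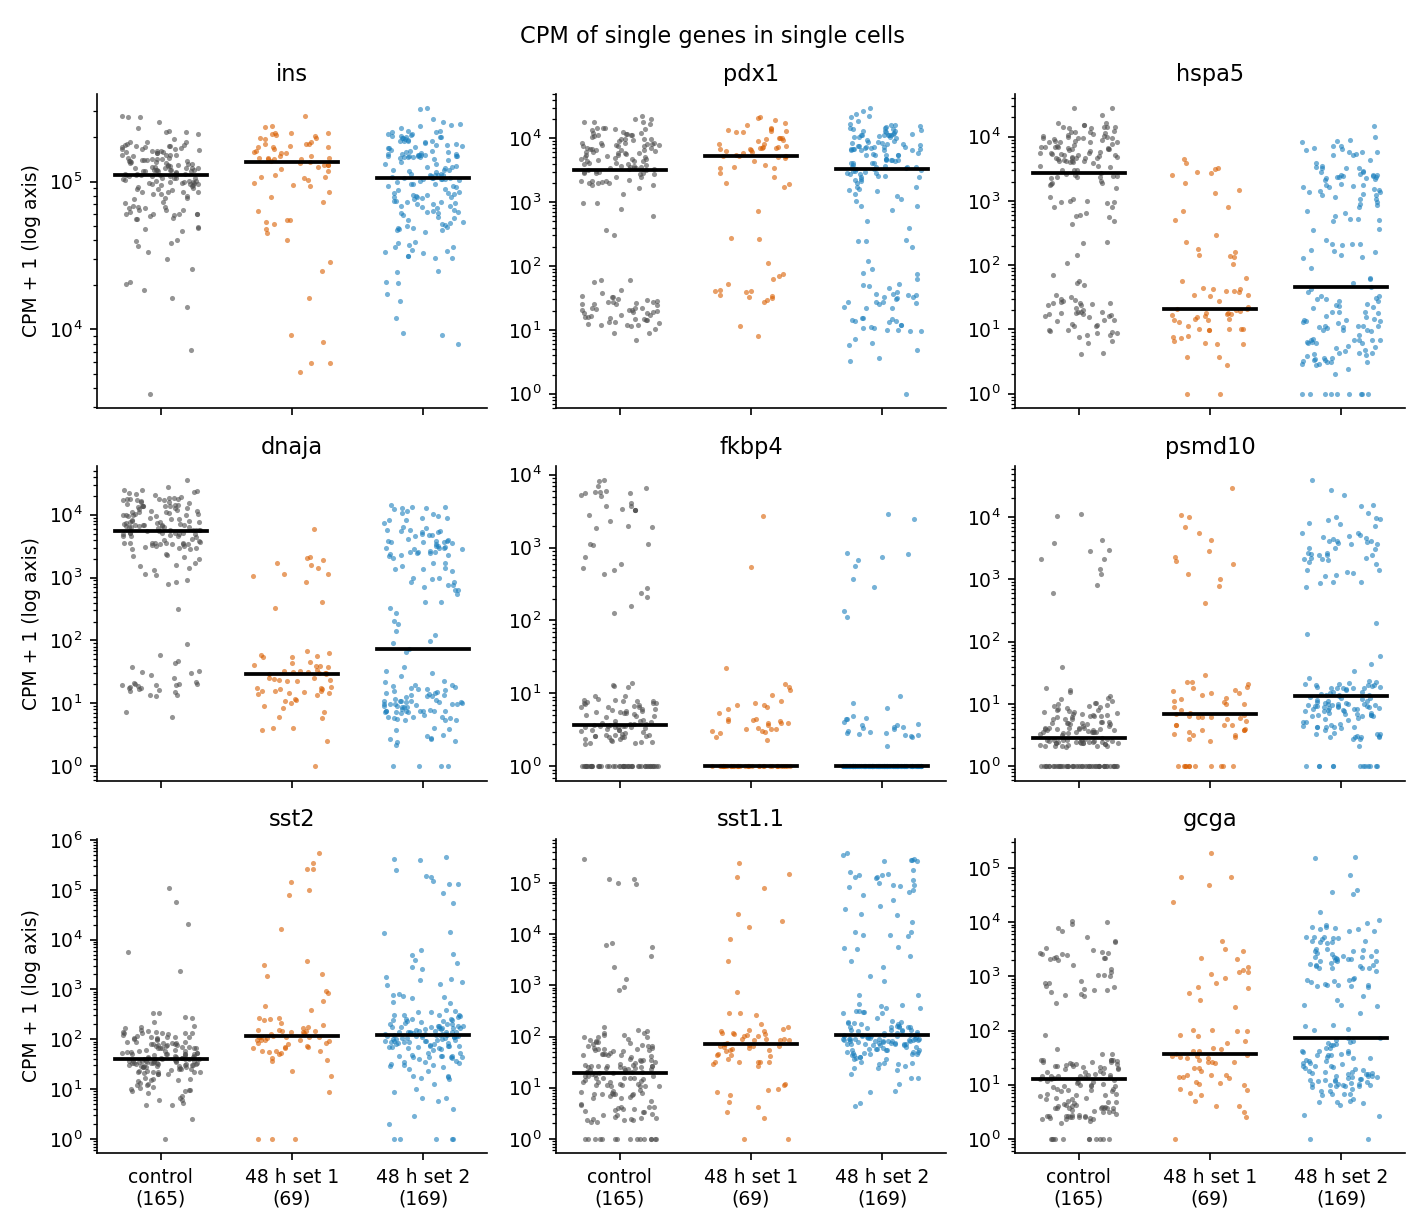
CPM + 1 (y axis, log) of 9 genes in each insulin-high cell of control, 48-h set 1 and 48-h set 2 (number of cells in brackets), with a black line at the median. *ins* overlaps between groups, the upper clouds of *dnaja* and *hspa5* hold fewer cells at 48 h, and those of *psmd10* and *sst1.1* hold more.

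Of the remaining genes furthest above control, *nppal*, a natriuretic peptide-like gene, had 0.262 CPM in control, 161.9 in set 1 and 105.04 in set 2 (ratio 6.59), and was held by 0 control cells and 14 cells at 48 h (5.88%). *mtg1*, a GTPase of mitochondrial ribosomes, had 1.39, 261.1 and 137.8 CPM (ratio 6.18), and the mitochondrial ribosomal protein *mrpl27* a ratio of 3.36. *arl2bp* (4.17), *nop10* (2.71), *gnb1a* (2.703) and *marcksl1b* (2.65) followed. Each of these was held by under 12% of 48-h cells in either set, so these ratios rest on few cells.

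Of the remaining genes furthest below control, *mindy3*, a deubiquitinase, had 183.986 CPM in control, 30.3 in set 1 and 10.0 in set 2 (ratio -3.47). *pcyt2*, an enzyme of phosphatidylethanolamine synthesis, had 291.6, 48.8 and 45.02 CPM (ratio -2.64). *tmem269* (-2.62), ENSDARG00000115174 (-2.60), *laptm4b* (-2.50) and the autophagy receptor *tax1bp1* (-2.33) followed. *laptm4b*, a lysosomal membrane protein, was at 1.16 CPM in set 1 and 49.9 in set 2, whereas *tax1bp1* was at 97.6 and 21.9 CPM, so the sets ranked in opposite order.

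Markers of several cell types outside the islet were present in a few cells, more of them at 48 h for acinar, enterocyte, ductal and, less so, neural markers. Acinar markers summed to 1.103 CPM in control, 1067 in set 1 and 110 in set 2, and 0, 4 and 2 cells had at least 1000 CPM of them, the highest 54489 CPM in set 1, with *prss59.2*, a trypsin-like protease, at 0.383, 561 and 58.7 CPM. Enterocyte markers summed to 2.44 CPM in control and 120.8 at 48 h (238.1 in set 1 and 75.6 in set 2), and reached 1000 CPM in 0 control cells, 3 cells of set 1 and 4 of set 2. Neuron and glia markers summed to 72.4 and 102.2 CPM, and 4 control and 9 48-h cells reached 1000 CPM. Erythrocyte markers summed to 180 CPM in control, nearly all of it in 1 cell with 99.7% of the *hbae1.1* counts, and to 0.419 CPM at 48 h. Macrophage markers summed to 1.19 CPM in control and 4.399 at 48 h, and endothelial markers to 0.122 and 0.107 CPM. The ductal list reached 69.4 and 215.7 CPM, nearly all of it from *anxa4*. Each of the remaining lists, such as hepatocyte, epidermis, pigment cell, muscle and T cell markers, summed to at most 53.6 CPM in control and 47.996 CPM at 48 h. Their part in the differences above was not tested.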

How the data were processed

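The authors sorted 1 cell per well for Smart-seq2, aligned reads to GRCz11 with GSNAP 2019-06-10 and counted them with featureCounts 2.0.1 on Ensembl release 95. The deposited values are raw read counts of 32520 genes and 92 spike-in RNAs per well, without molecular identifiers. Symbols, many in human style, came from the supplied name table and gene names in the study's tables, and 29201 IDs matched. Wells were grouped by their labels, 4 wells without a condition were left out, and 0 columns stayed unused. Members and lists were chosen with earlier results of these data known. Named genes are the 12 largest rises and falls among called genes with no cell above 20% of the counts of the higher group, up to 4 members per list with the largest ratios, beta-cell markers, and the highest marker of each other cell type. The measure was tested on simulated data. Alternatives covered pseudocount, gene filter, scaling (edgeR 4.0.16, DESeq2 1.42.0), cell weighting, thinning, cell limits and each set. Because each treatment is 1 sample, no test was made. A result on an islet transcription factor is not reported here. Python 3.11.15, numpy 2.4.6, pandas 2.3.3, scipy 1.17.1 and R 4.3.3 were used.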

Additional observations from a re-analysis of the deposited data

How the results depend on the processing

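The share of genes called depended on which genes were tested. In the report 10.06% of tested genes were higher, 11.35% lower and 35.91% apart between the sets. With every gene that had a count these were 5.139%, 10.27% and 29.43% (1242, 2483 and 7114 of 24169 genes). With a count in 50% of cells they were 8.299%, 9.544% and 21.58% (of 482 genes), and after thinning each cell to 50000 counts 7.536%, 9.275% and 14.78%. With at least 100 CPM in 10% of cells, a filter chosen after seeing the data, they were 8.456%, 9.007% and 22.79% (of 544 genes). The numbers of genes called moved by over 1.5 times in these settings, which test more or fewer genes. Leaving out set 1 or set 2 gave 16.3% to 24.26% higher and 18.09% to 21.6% lower genes, since a gene then had to pass in 1 set only. Other pseudocounts, scalings and limits on cells kept each number of called genes within 1.5 times. The heat shock median stayed between -2.14 and -1.25, while that of the ER chaperones ran from -0.99 to 0.10. Of 63 ratios of named genes past 2-fold in the pool and in both sets, counted whether or not the gene was tested, 2 changed sign. Of the other 55 ratios 17 did, among them *nkx2-2* (0.87, and -2.99 without cells holding another hormone), *apoa2* (1.15, and -3.90 without those cells) and *pyya* (0.51, and -1.45 without set 2). Medians of 12 of 18 uncalled lists changed sign under some setting, glycolysis from 0.57 to -0.48 after thinning and immediate early genes from 0.51 to -0.32 without set 2. Of the called ratios, *cd28* reversed without its highest cell (0.47) and without cells holding another hormone (0.41), and *elovl1a*, the list of cholesterol and fatty acid synthesis in itself, reversed with no limit on *ins* (0.35). The causes were not tested. No paired analysis was possible because each treatment is 1 sample and no test was made.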
